A study of Sus scrofa with 6 samples.

Results

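Ribosomal protein genes encode the proteins of the cytosolic ribosome, and here they comprised 84 of the 32285 gene features in 6 single-cell RNA sequencing libraries. Members were chosen by symbol alone: Rpl or Rps followed by a number and at most a paralog ending, together with Rplp0, Rplp1, Rplp2 and Rpsa. Symbols of listed pseudogenes and of the Rps6k kinases were left out. Of the 84 members, 52 belonged to the large ribosomal subunit and 32 to the small one. All 84 had at least 1 UMI (unique molecular identifier, a tag that counts a captured RNA molecule once), although Rpl10l had a single UMI in all libraries together.

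By their labels the libraries came from the skin of red duroc pigs and were made from unsorted cells released with collagenase. The 6 labels were normal skin, irradiated skin, and irradiated skin given a 1 mg transdermal patch of deferoxamine (DFO, an iron chelator) on 4 schedules. These were pretreatment (2 weeks ahead of radiotherapy), continuous (18 weeks overall), acute (12 weeks during recovery from radiation) and chronic (4 weeks once recovery was over). Each label had 1 library, so no spread between animals could be measured and no difference between libraries was tested. Although the labels name pigs, every gene feature was a mouse Ensembl identifier. Counts of 4 anti-mouse hashtag antibodies stood beside the genes in each library but pretreatment and continuous. The series title concerns an anti-JUN therapeutic and adhesions. Libraries are referred to by label only, and the text ascribes nothing to radiotherapy or to the iron chelator. Gene totals ran from 18611144 to 54966435 UMIs per library, and the median barcode held 1339 to 7040. Lists of 6 values run from normal through irradiated, pretreatment, continuous and acute to chronic. After filters, 1499 to 24132 cells remained per library, of which 73.2% to 86.7% were assigned to 1 of 15 classes from marker genes. Pairs of libraries shared 3 to 153 barcodes, at most 0.773% of the smaller library.

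Ribosomal proteins assemble with ribosomal RNA into a small subunit, which reads the messenger RNA, and a large subunit, which joins amino acids. Their messenger RNAs carry a terminal oligopyrimidine tract, through which the mTOR pathway controls their translation together. Rplp0, Rplp1 and Rplp2 form the stalk that recruits elongation factors, and Rpl5 and Rpl11 join a precursor particle that can bind Mdm2 and so affect p53. Several members have a paralog of restricted expression: Rpl3l is best known from striated muscle, and Rpl10l and Rpl39l from testis. The paralog Rps27l is known as a p53 target.

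Over all kept cells the members were led by Rpl41 (ENSMUSG00000093674), a very short protein of the large subunit, with 921926 UMIs. Rps29 (880778 UMIs), Rpl37a (842634) and the stalk gene Rplp1 (771220) followed. The order of the first 2 differed by library, and Rps29 had more UMIs than Rpl41 in pretreatment, continuous and chronic. Rps12 (667136), Rps9 (660033), Rps24 (653553), Rps28 (635608) and Rpl23 (556934) were also among the 10 highest. The 10 took 25.6% of all ribosomal protein UMIs. The large subunit took 54.3% of the UMIs with 52 of the 84 genes. The 4 members with the fewest UMIs were all paralogs: Rpl7l1 (8071 UMIs), Rpl39l (4695), Rpl3l (740) and Rpl10l (1). These are counts of 3' tags and were not divided by transcript length, so they order the members by captured molecules only.

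The share of ribosomal protein RNA differed between cell classes. Keratinocytes, the epithelial cells of the epidermis and hair follicle, had the highest share in each of the 6 libraries among classes with at least 20 cells, at 21.6, 20.6, 29.9, 25.5, 22.6 and 27.6% of gene UMIs. Neutrophils, short-lived granulocytes, had the lowest share in each library among these classes, at 3.53, 3.70, 5.68, 3.57, 4.68 and 4.41%, on 24 cells in the library labelled pretreatment. Their highest value lay below the lowest value of every other such class. T cells stood at 15.5, 13.8, 23.8, 23.0, 13.4 and 19.5%. Macrophages or monocytes stood lower than T cells in every library, at 9.85, 9.07, 17.5, 13.5, 9.92 and 13.4%. Fibroblasts, which form the connective tissue matrix, stood at 13.4, 14.5, 14.6, 16.6, 13.9 and 16.3%, a narrower range than that of T cells. Vascular endothelial cells, which line blood vessels, stood at 13.9, 11.9, 16.6, 15.5, 12.3 and 15.4%, a range that overlaps that of fibroblasts. Dendritic cells stood at 13.0, 12.7, 24.0, 19.8, 13.9 and 19.5%, on 26 to 142 cells. B cells stood at 19.9%, 13.9% and 24.1% in the 3 libraries with at least 20 of them, normal, irradiated and chronic.

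**Figure D1:**
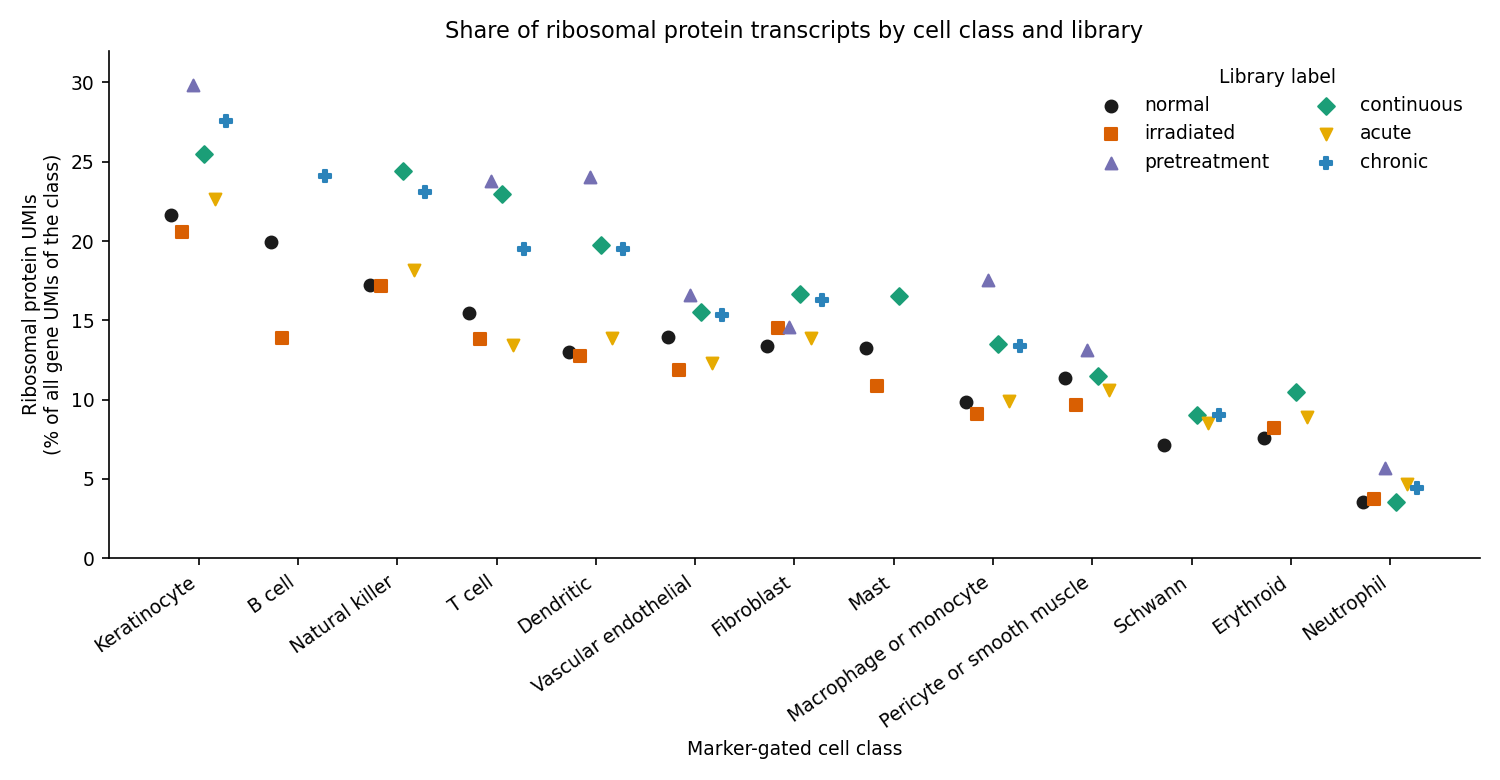
Share of gene UMIs that came from the 84 ribosomal protein genes (vertical axis, percent) for each marker-gated class with at least 20 cells (horizontal axis), with 1 point per library. Keratinocytes lie between 20.6% and 29.9% and neutrophils between 3.53% and 5.68%, and points for pretreatment, continuous and chronic lie high within most classes.

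Depth and marker content moved with the classes. The median UMIs per cell were 1052, 1180, 4021, 2686, 938 and 1885 in neutrophils, 2082, 2213, 13602, 4973, 1735 and 4344 in macrophages or monocytes and 2432, 3325, 6311, 5396, 3296 and 5677 in keratinocytes. Counted per cell, the median number of ribosomal protein UMIs was 28.0, 29.0, 130, 74.0, 28.0 and 56.0 in neutrophils against 186, 181, 2324, 646, 160 and 549 in macrophages or monocytes. Within a class of 1 library, cells in the deepest tercile of UMIs had a higher share than cells in the shallowest tercile in 6 of 6 libraries for keratinocytes, T cells, fibroblasts and vascular endothelial cells. The same held in 5 of 5 for neutrophils and 5 of 6 for macrophages or monocytes. In neutrophils, however, the middle tercile had a lower share than the shallowest in each of these 5 libraries, such as 3.01% against 3.46% in continuous. Their share was therefore raised only in the deepest cells. The 9 neutrophil markers, all matched, summed to 91959 to 227995 CPM (counts scaled to the total gene UMIs of the class and library) in neutrophils, and to 419.7 to 2406 CPM in T cells, 287 to 4533 in macrophages or monocytes, 448 to 2361 in fibroblasts and 169.7 to 10213 in keratinocytes. The 13 macrophage or monocyte markers summed to 13242 to 21979 CPM in their own class, 423 to 2294 in T cells and 2555 to 9399.9 in keratinocytes. The part of these markers in the class differences was not tested, and values in cells of 1500 to 3000 UMIs are given beside the differences.

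Classes were compared within libraries, with each library giving 1 difference. T cells exceeded macrophages or monocytes by 5.94 ± 2.00 percentage points (SD, n = 6 libraries), higher in 6 of 6 (exact sign-flip test, two-sided p = 0.0312, the smallest 6 libraries allow, adjusted p = 0.0521 over 5 pairs). Neutrophils differed from macrophages or monocytes by -7.96 ± 2.73 points, lower in 6 of 6 libraries, with the same p and adjusted p by that exact test. Keratinocytes exceeded fibroblasts by 9.75 ± 3.17 points in 6 of 6 libraries, again with that exact p and adjusted p. These 3 differences kept one direction in all libraries but missed an adjusted p of 0.05 in so small a design. Vascular endothelial cells and fibroblasts did not separate, at -0.62 ± 1.65 points with 2 of 6 libraries higher (exact p = 0.375). That difference turned to 0.83 points in cells of 1500 to 3000 UMIs (5 libraries), and was -1.37 points with single-cell medians (adjusted exact p = 0.0391). With single-cell medians the 3 differences above also kept one direction in 6 of 6 libraries, so each had that same adjusted exact p. That value rests on the smallest p that 6 libraries allow and does not set the endothelial pair apart. B cells exceeded T cells by 3.04 ± 2.61 points in 3 of 3 libraries, where the exact test cannot go below p = 0.25. The differences ran from 0.03 to 4.63 points, and in the library labelled irradiated the 2 classes were practically level. In cells of 1500 to 3000 UMIs (5 libraries) the first 3 differences were 5.96, -6.65 and 6.34 points.

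Single members were then tested between classes by edgeR's quasi-likelihood test on summed UMIs, with library as a block, TMM scaling and Benjamini-Hochberg adjustment over all genes. Calls are at an adjusted p under 0.05. The libraries are the replicates of this test, each class pair shares them, and the labels do not say that they are separate animals, so p-values measure the spread between these libraries only. With TMM scaling the median log2 fold change of all genes tested was -0.08 to -0.01, except for B cells, at -0.23. Scaling to total UMIs moved it to 0.33 for T cells, -0.97 for neutrophils, 0.29 for endothelial cells and 0.20 for keratinocytes. For B cells it was then -0.27, little changed. Each value is against the partner class. The members' median is therefore also given relative to the median of all genes.

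Between T cells and macrophages or monocytes, 47 of 82 members tested were higher in T cells (32.4% of all genes were) and 4 were lower (34.5% of all genes). The members' median log2 fold change was 0.30, or 0.31 relative to all genes. Rpl12, of the large subunit base near the stalk, led with CPM of 1443, 1177, 2975, 2616, 1171 and 2073 in T cells against 573, 477, 1433, 839.9, 532 and 878 in macrophages or monocytes. Each T cell value exceeded that of the same library, and the fold change was 0.94 (SE 0.10, adjusted p = 4.24e-05) in log2. Rpsa, a small subunit protein also known as the laminin receptor, stood at 3556, 3473, 4784, 4147, 3024 and 3058 CPM against 1444, 1299.5, 2574, 1633, 1399 and 1525. Its fold change was 0.84 (SE 0.09, adjusted p = 2.92e-05), and the lowest T cell value exceeded the highest macrophage value. Rpl13a, which also silences selected inflammatory mRNAs, stood at 3031, 2634, 3379, 3772, 2449 and 3495 CPM against 1256, 1176, 1816, 1434, 1231 and 1463, again without overlap, with a fold change of 0.82 (SE 0.10, adjusted p = 6.58e-05).

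The 4 members lower in T cells all belong to the small subunit, and none of them was called lower when scaled to total UMIs. Rps27l had a log2 fold change of -0.65 (SE 0.12, adjusted p = 0.00103), with CPM of 262, 184, 587, 261, 209 and 318 in macrophages or monocytes and 232, 199.9, 359, 262, 155 and 206 in T cells. These ranges overlap, and in the libraries labelled irradiated and continuous the T cell value was the higher one. Rps29 gave -0.42 (SE 0.08, adjusted p = 0.000974) and Rps9 -0.33 (SE 0.09, adjusted p = 0.0119). The CPM of these abundant genes overlapped, 3584 to 6124 against 3581 to 7262 for Rps29, and 2994 to 3555 against 2955 to 3376 for Rps9. Scaled to total UMIs, Rps9 stood at 0.016 (adjusted p = 0.852 by edgeR), and 75 members were then higher and 0 lower. The fourth was Rps28, at -0.21 (SE 0.08, adjusted p = 0.0394). Of the Mdm2-binding pair, Rpl5 stood at 0.55 (SE 0.10, adjusted p = 0.00127) and Rpl11 at 0.36 (SE 0.10, adjusted p = 0.0127). The stalk genes Rplp1 (0.31) and Rplp2 (0.22) passed the test, and Rplp0 had 0.22 (adjusted p = 0.0668 by edgeR). The count of 47 fell to 15 without the library labelled chronic and to 7 without the library block, with medians of 0.21 and 0.32, and it was 12 without a filter on low counts. By DESeq2, which kept all genes with a UMI, 45 members were higher and 7 lower, but their median relative to all genes was -0.07.

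Other translation genes were described from lists, beside 32.4% of all genes higher and 34.5% lower in this pair. Of 19 further terminal oligopyrimidine genes, such as elongation and initiation factors, 12 were higher in T cells and 2 lower (median 0.37). Ribosome biogenesis genes, which act in the nucleolus, counted 10 higher and 2 lower of 21 (median 0.39). Proteins of the mitochondrial ribosome counted 15 higher and 28 lower of 78 (median -0.12), the lower ones near the share of all genes. Of the 13 mitochondrially encoded genes 0 were called by edgeR, and 0 had an unadjusted p under 0.05 (median 0.02).

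Neutrophils had lower levels of most members than macrophages or monocytes. Of 83 tested, 72 were lower (35.2% of all genes) and 1 was higher (32.2% of all genes), and the median log2 fold change was -0.78, or -0.70 relative to all genes. The members that passed with the smallest decreases were Rps12 (-0.38) and Rps13 (-0.39), both of the small subunit. Scaled to total UMIs, the median was -1.62 and 81 members were lower. The largest decrease was that of Rpl3, a core protein of the large subunit, at -1.40 (SE 0.20, adjusted p = 3.32e-05). Its CPM were 130.1, 153, 138, 92.3, 207 and 149.9 in neutrophils and 605, 520.3, 1226, 722, 564 and 764 in macrophages or monocytes, without overlap. Rps27l followed at -1.34 (SE 0.15, adjusted p = 4.17e-06), with CPM of 57.6, 51.6, 121, 31.0, 68.4 and 65.2 in neutrophils. Rpl36al, the paralog of Rpl36a, stood at -1.29 (SE 0.16, adjusted p = 1.24e-05), with 95.2, 112, 224, 65.4, 147 and 108 CPM in neutrophils against 429, 382, 754, 613, 396 and 578. The neutrophil values of both paralogs lay below every macrophage value, and neutrophil counts of the library labelled pretreatment rested on 14 to 26 UMIs for these genes.

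Not every member followed. Rpl39l had a log2 fold change of 0.50 (adjusted p = 0.137 by edgeR), with 0 to 3.82 CPM in neutrophils against 2.01 to 6.85. Rps27 had a log2 fold change of 0.33 (adjusted p = 0.0654 by edgeR) and Rps9 of 0.24 (adjusted p = 0.199), both above the members' median but past no threshold. Rpl41, the member with most UMIs over all kept cells, had -0.32 (adjusted p = 0.0792 by edgeR). On the CPM scale Rps27, Rps9 and Rpl41 were lower in neutrophils in each library, with 877 to 1545 against 1190.4 to 2212 CPM for Rps27. The Mdm2-binding Rpl5 and Rpl11 passed the test at -1.0 and -0.96, and the stalk genes Rplp0, Rplp1 and Rplp2 at -0.65, -0.86 and -0.61. The terminal oligopyrimidine list had 13 lower and 2 higher of 19 (median -0.60) and ribosome biogenesis genes 14 lower and 0 higher of 21 (median -0.74). Mitochondrial ribosomal proteins had 66 lower of 78 and 3 higher (median -0.87), beside 35.2% and 32.2% of all genes. The mitochondrially encoded genes stood the other way, with 12 of 13 higher and 0 lower (median 0.70).

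Keratinocytes exceeded fibroblasts in 68 of 82 members tested (29.7% of all genes were higher) and had 1 lower (32.9% of all genes). The median log2 fold change was 0.56, or 0.57 relative to all genes. The 3 highest were Rps16, Rps18 and Rpl22. Rps16, a small subunit protein, stood at 3757, 3702, 4937, 4520.3, 3919 and 4879 CPM in keratinocytes against 1818, 1953, 2064, 2582, 1822 and 2233 in fibroblasts, without overlap, and its fold change was 0.83 (SE 0.12, adjusted p = 0.000193). Rps18 stood at 0.81 (SE 0.13, adjusted p = 0.000424) and Rpl22, which also acts in lymphocyte development, at 0.81 (SE 0.12, adjusted p = 0.000267). Rpl22 held 1796 to 2422 CPM in keratinocytes and 959 to 1149 in fibroblasts. Rps24 (0.37) and Rps28 (0.29) were the smallest increases that passed. The exception, Rpl39l, is described with the other paralogs. Ribosome biogenesis genes moved the same way, with 19 of 21 higher and 1 lower (median 0.84), as did the terminal oligopyrimidine list with 16 of 19 higher and 0 lower (median 0.46). Beside the 29.7% and 32.9% of all genes, 35 of 78 mitochondrial ribosomal proteins were higher and 2 lower (median 0.36), and of the 13 mitochondrially encoded genes 12 were higher and 0 lower (median 0.79).

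Vascular endothelial cells and fibroblasts, whose shares did not separate, did differ member by member under TMM scaling. Of 82 members, 56 were lower in endothelial cells (28.7% of all genes) and 0 higher (25.8% of all genes), with a median of -0.37, or -0.36 relative to all genes. This count depended on the scaling: with total UMIs it was 12 lower and 3 higher, with a median of -0.07, but -0.36 relative to all genes. The 3 smallest decreases that passed, Rps3 (-0.28), Rpl7a (-0.26) and Rpl37a (-0.23), then turned to 0.022, 0.037 and 0.068. Without the library block 30 were lower. By DESeq2 67 were lower and 0 higher, and 65 members had an unadjusted p under 0.05 by edgeR in either direction. After Rpl39l, the lowest were Rpl21 and Rpl12, both of the large subunit. Rpl21 stood at 598, 488, 1526, 1094, 535 and 907 CPM in endothelial cells against 924, 921, 1571, 1578, 883 and 1433 in fibroblasts. It was lower in endothelial cells in each library, with a log2 fold change of -0.88 (SE 0.13, adjusted p = 0.000115 by edgeR). Rpl12 gave -0.74 (SE 0.12, adjusted p = 0.000226), with 793 to 1353 CPM against 1259 to 1786. The stalk genes Rplp0 (-0.62) and Rplp1 (-0.68) were lower and Rplp2 had -0.15 (adjusted p = 0.208 by edgeR). Terminal oligopyrimidine genes counted 7 lower and 1 higher of 19 (median -0.16), ribosome biogenesis genes 5 and 1 of 20 (median -0.11), and mitochondrial ribosomal proteins 22 and 5 of 78 (median -0.15), against 28.7% and 25.8% of all genes. The mitochondrially encoded genes stood higher, 10 of 13, with 0 lower (median 0.39).

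B cells and T cells could be compared in 3 libraries, with 30 to 35 B cells each. Of 81 members 4 were higher in B cells (3.69% of all genes) and 0 lower (8.96% of all genes), and 14 had an unadjusted p under 0.05 by edgeR, in either direction. The count of 4 was near the share of all genes, so it does not set the members apart. The 4 belong to the small subunit. Rps27, a zinc finger protein, held 4148, 2119 and 4967 CPM in B cells of the libraries labelled normal, irradiated and chronic. T cells held 1844, 1541 and 3144 CPM, and the log2 fold change was 0.79 (SE 0.18, adjusted p = 0.000196 by edgeR). Rps19 and Rps24, known from Diamond-Blackfan anaemia, gave 0.68 (SE 0.18, adjusted p = 0.00219) and 0.68 (SE 0.17, adjusted p = 0.000672), and Rps28 gave 0.47 (SE 0.17, adjusted p = 0.0479). The count was 0 without the library labelled normal, 2 without chronic and 0 without the block. The members' median was 0.22, or 0.45 relative to all genes, and -0.27 relative to all genes by DESeq2. Ribosome biogenesis genes counted 2 higher and 0 lower of 19, terminal oligopyrimidine genes 0 and 1 of 19, mitochondrial ribosomal proteins 0 and 2 of 65, and mitochondrially encoded genes 0 and 0 of 13, where 0 had an unadjusted p under 0.05 by edgeR.

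**Figure D2:**
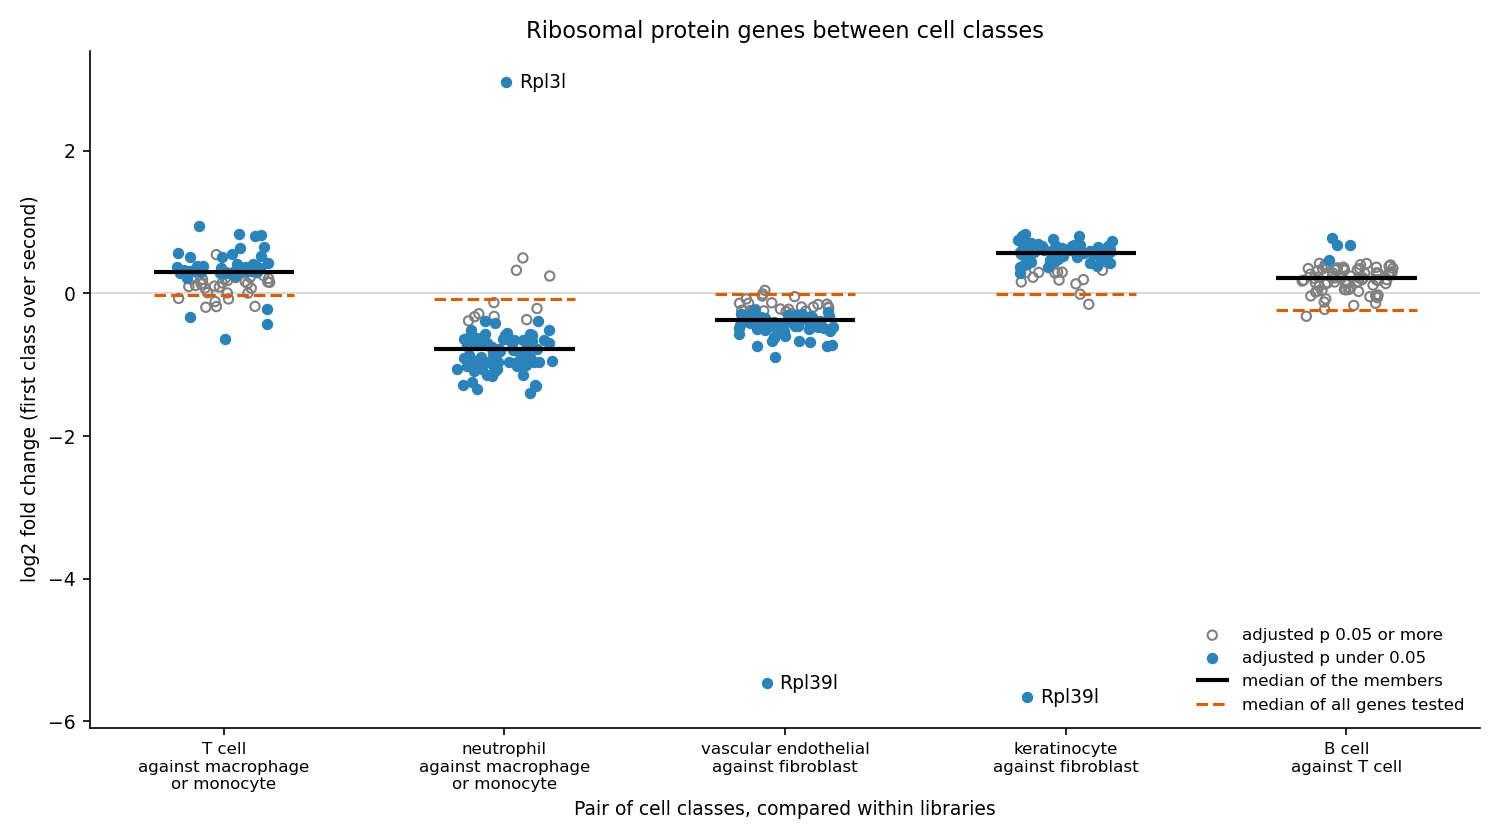
Log2 fold change of each tested ribosomal protein gene (points) between the first and second class of 5 pairs (horizontal axis), from edgeR with library as a block and TMM scaling; filled points have an adjusted p under 0.05, solid bars mark the median of the members and dashed bars that of all genes tested. Medians are 0.30, -0.78, -0.37, 0.56 and 0.22 from left to right, and Rpl3l (2.97) and Rpl39l (-5.47 and -5.66) lie far from the other members.

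The paralogs departed most from the family. Rpl39l (ENSMUSG00000039209), the paralog of the small exit-tunnel protein Rpl39, was found above all in fibroblasts, at 60.8, 58.2, 90.3, 116, 74.0 and 73.4 CPM. Pericytes or smooth muscle cells, the mural cells of vessels, held 33.9, 58.4, 65.5, 42.2 and 50.3 CPM in the 5 libraries other than chronic, on 7 to 14 UMIs. In irradiated they were level with fibroblasts. The 8 fibroblast markers summed to 1377 to 9154 CPM in this class, and their part in its Rpl39l values was not tested. Endothelial cells held 1.34, 4.50, 4.95, 1.34, 0 and 1.49 CPM and keratinocytes 7.78, 0.559, 0.698, 0.868, 3.27 and 0.619, so neither range reached that of fibroblasts. Its log2 fold change was -5.47 (SE 0.30, adjusted p = 5.28e-08) in endothelial cells and -5.66 (SE 0.44, adjusted p = 2.36e-06) in keratinocytes, both against fibroblasts. A UMI of Rpl39l was found in 18.3% to 51.4% of fibroblasts, 8.87% to 28.6% of pericytes or smooth muscle cells, 0% to 3.37% of endothelial cells, 0.316% to 1.18% of keratinocytes and 0% to 0.577% of neutrophils, over the libraries. Fibroblasts were the deeper cells, with median UMIs of 4162, 5092, 12102, 9300, 3893 and 7265 against 2309, 1809, 4289, 2857, 1629 and 3041 in endothelial cells. Keratinocytes, at 2432, 3325, 6311, 5396, 3296 and 5677, were of a depth nearer to fibroblasts. In the library labelled acute, 0 of 414 endothelial cells had a UMI, which allows a share of up to 0.725% at 3 counts. That limit covers counting error and cells with a UMI at this depth, and sets none on cells that express the gene. Natural killer and B cells had 0 Rpl39l UMIs in all libraries where they were counted. Their sums were small, at 85101 to 138442 gene UMIs per library in natural killer cells and 39297 to 94421 in B cells. In a single library 0 UMIs therefore sets only a coarse limit on the level there. The main gene Rpl39 did not share this pattern, at 1924 to 2868 CPM in fibroblasts, 1742 to 2426 in endothelial cells and 2708 to 4812 in keratinocytes.

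Rpl3l (ENSMUSG00000002500) was the one member higher in neutrophils than in macrophages or monocytes, by 2.97 (SE 0.30, adjusted p = 1.58e-06) in log2. Its CPM were low, 8.71, 7.99, 8.63, 16.0, 6.19 and 10.3 in neutrophils against 2.32, 2.37, 0.403, 1.85, 2.60 and 2.18, and the neutrophil value of pretreatment is 1 UMI. The 2 ranges did not overlap. A UMI of Rpl3l was found in 0.709% to 4.25% of neutrophils and 0.512% to 1.00% of macrophages or monocytes, although the latter were deeper. T cells had 0 UMIs in 5 of 6 libraries, and keratinocytes in all 6. Rpl3 itself went the other way in neutrophils, as given above.

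Rps27l was highest in dendritic cells in 5 of 6 libraries, at 1008, 1176, 549.8, 893, 809 and 1315 CPM, and lowest in neutrophils in all 6. In the library labelled pretreatment, macrophages or monocytes held more of it than dendritic cells. In fibroblasts Rps27l stood at 266, 420.1, 213, 427, 426 and 429.6 CPM, with normal and pretreatment below the other libraries. Rps27 itself was lower in dendritic cells than in keratinocytes in each library, at 1854 to 3205 CPM against 2853 to 4021. Rpl22l1 stood at 551 to 809 CPM in keratinocytes, 397 to 644 in fibroblasts, 291 to 657 in T cells, 146 to 339 in macrophages or monocytes and 60.9 to 88.7 in neutrophils. Its partner Rpl22 was higher than it in every one of these classes and libraries. Between T cells and macrophages or monocytes Rpl22l1 had a log2 fold change of 0.80 (SE 0.11, adjusted p = 0.000125 by edgeR). That of Rpl22 was 0.33 (SE 0.10, adjusted p = 0.0134 by edgeR), and the difference between them was not tested. Rpl36al and Rpl36a had 0.01 (adjusted p = 0.935 by edgeR) and 0.37 (adjusted p = 0.0162) there. Rpl7l1 stayed low in every class named here, between 8.18 and 68.2 CPM, against 346 to 501 CPM of Rpl7 in neutrophils and 2109.7 to 2726 in keratinocytes. Of 2 members with relatives that were not analysed here, Rps4x stood at 2404 to 4058 CPM in keratinocytes and 236 to 475 in neutrophils, and Rpl26 at 2220.1 to 3434 and 318 to 535. Rpl10l had its 1 UMI in a macrophage or monocyte of the library labelled acute. Reads of near-identical copies can be divided between them in counting, so levels of such pairs are uncertain.

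**Figure D3:**
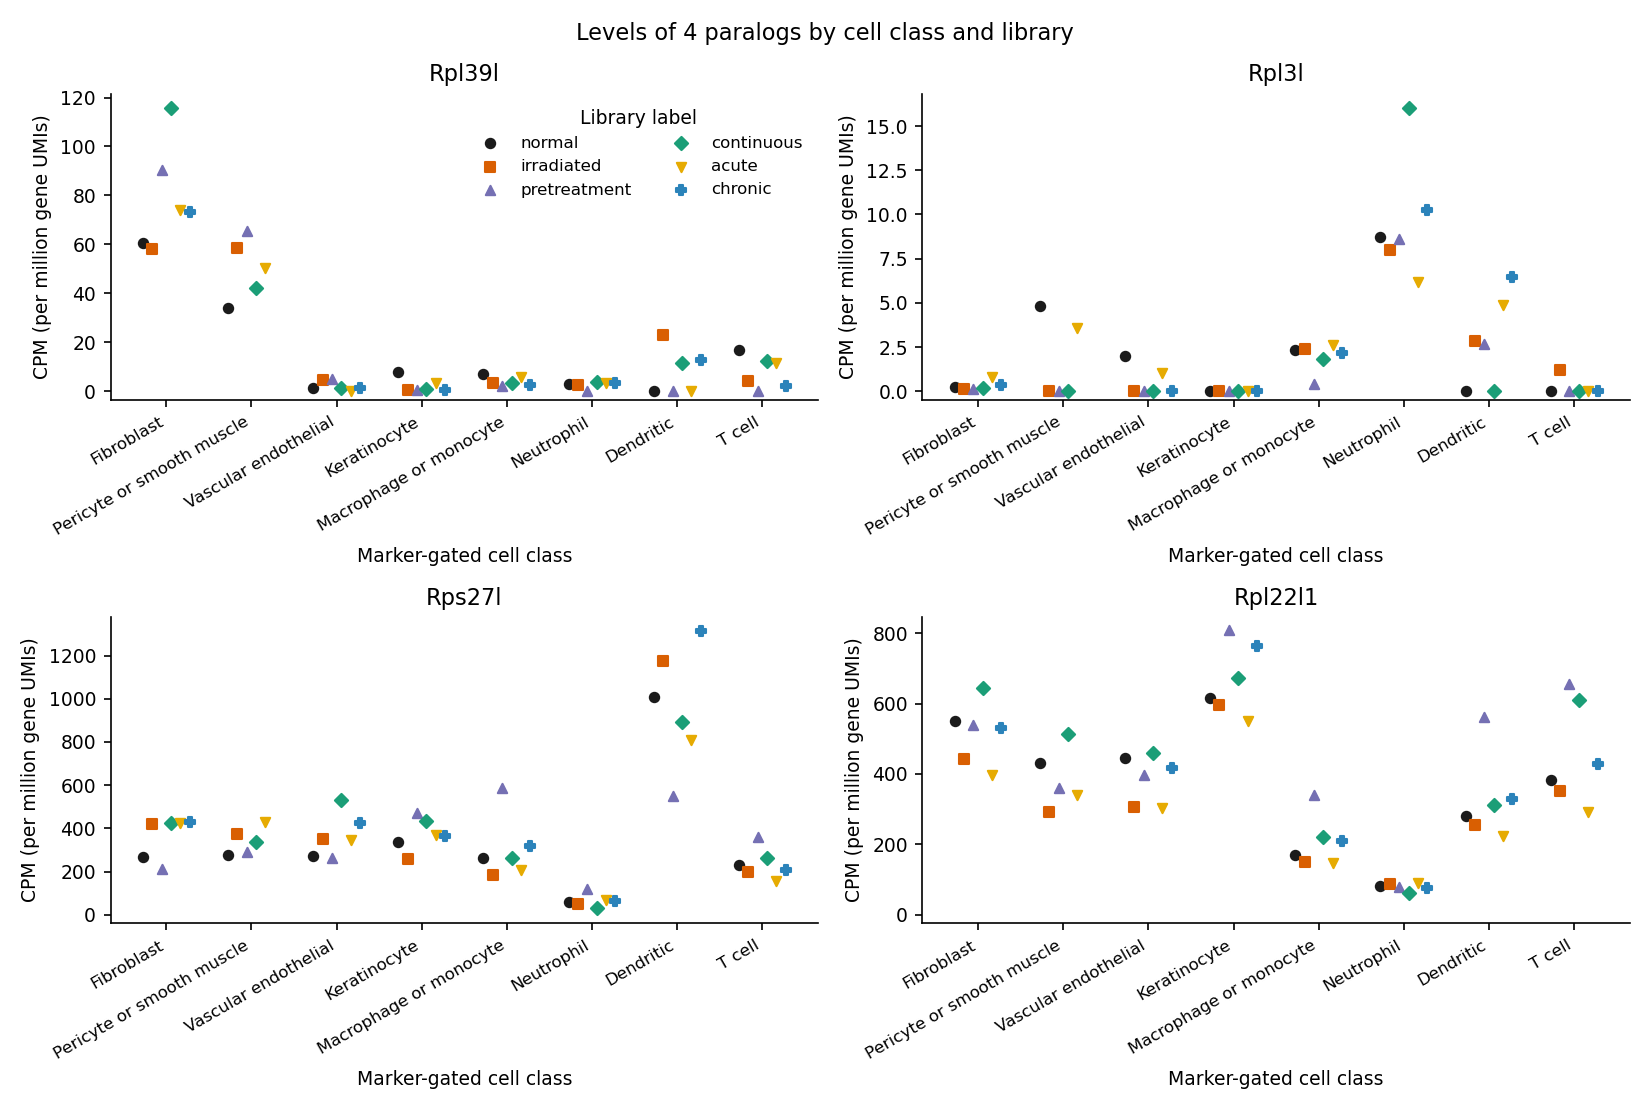
Level of 4 ribosomal protein paralogs in CPM (vertical axes, linear, each panel with its own range) in 8 marker-gated classes (horizontal axes), with 1 point per library of at least 20 cells. Rpl39l lies at 58.2 to 116 CPM in fibroblasts and under 8 CPM in endothelial cells and keratinocytes, Rpl3l at 6.19 to 16.0 CPM in neutrophils, and Rps27l at 549.8 to 1315 CPM in dendritic cells.

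Between libraries, differences in share are given in percentage points with 95% intervals for counting error only, in the classes with at least 50 cells in both. All 5 comparisons use the library labelled irradiated, once against normal and otherwise as the control, so they are not independent. Irradiated stood below normal in 7 of 10 classes and above it in 3, with a median difference of -0.52 and differences from -2.04 to 1.13. Among the 7, natural killer cells gave -0.10 (-0.41 to 0.22), an interval that includes equality. Fibroblasts gave 1.13 (1.10 to 1.16), endothelial cells -2.04 (-2.12 to -1.95). Pretreatment stood above irradiated in 5 of 5 classes (median 8.48), by 8.48 (8.44 to 8.52) in macrophages or monocytes and 9.93 (9.83 to 10.04) in T cells, but by only 0.10 (0.07 to 0.14) in fibroblasts. Continuous stood above irradiated in 6 of 7 classes (median 3.63), with 9.16 (9.09 to 9.23) in T cells and -0.13 (-0.15 to -0.11) in neutrophils, the class below irradiated. With medians of single-cell shares, the neutrophil difference of continuous was 0.37 and that of irradiated against normal -0.16, each with its sign turned. Natural killer cells of irradiated against normal also turned, to 0.29, and dendritic cells turned to 1.02 under a stricter gate. Chronic stood above irradiated in 7 of 7 (median 4.32), and acute in 8 of 10 (median 0.88, from -0.58 to 2.07).

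Depth moved with these differences. Median UMIs per macrophage or monocyte were 2082, 2213, 13602, 4973, 1735 and 4344, and per T cell 1429, 1236, 5764, 2626, 970 and 2173. Restricted to cells of 1500 to 3000 UMIs, macrophages or monocytes of pretreatment still exceeded those of irradiated by 6.11 points, on 20 cells, those of continuous by 3.86 and those of chronic by 3.61. In T cells the difference was 7.17 points in continuous and 5.02 in chronic. In fibroblasts it turned to -2.29 in pretreatment (32 cells) and -0.33 in continuous, and was 0.10 in chronic. For irradiated against normal, fibroblasts turned to -0.27 and neutrophils to -0.06, T cells of acute turned to 0.32 and neutrophils of chronic to -0.44. Some differences grew instead. Keratinocytes of irradiated against normal went from -1.06 to -4.49 points. Against irradiated, keratinocytes of acute went from 2.07 to 4.17 and its neutrophils from 0.98 to 2.11. Mitochondrially encoded UMIs over all cells were 4.30%, 3.92%, 3.43%, 3.43%, 4.04% and 3.46%, lowest in pretreatment, continuous and chronic. Hashtag counts were present in normal, irradiated, acute and chronic, and their part in these differences was not tested.

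Member by member, a gene was counted as higher where its CPM was at least 25% above that of the other library and as lower where it was at least 20% below, with an interval for counting error that left out equality. Genes with at least 100 UMIs over both libraries were counted. For irradiated against normal, in macrophages or monocytes 0 of 82 members were higher (10.3% of all genes) and 5 lower (16.3% of all genes), with a median log2 ratio of -0.14 against -0.09 for all genes. In T cells 0 of 81 members were higher (10.2% of all genes) and 10 lower (9.52% of all genes), with a median log2 ratio of -0.21 against -0.03 for all genes. In fibroblasts 1 of 82 members was higher (10.8% of all genes) and 0 lower (12.1% of all genes), with a median log2 ratio of 0.10 against -0.01 for all genes. The lowest in macrophages or monocytes were Rpl39l (-0.94) and Rps27l (-0.51) in log2 and the highest Rpl37a (0.14) and Rpl38 (0.04). In T cells they were Rps15a (-0.42) and Rpl7l1 (-0.41), and Rps26 (0.06) and Rpl37a (0.04). Fibroblasts had Rpl22l1 (-0.31) and Rpl5 (-0.09) at the low end and Rps27l (0.66) and Rpl38 (0.29) at the high end. In these 3 classes the counts stood below or near those of all genes. That did not hold in every class. Vascular endothelial cells had 26 of 81 members lower (8.73% of all genes) and 1 higher (12.1%), with a median of -0.26 against -0.0047 for all genes. Pericytes or smooth muscle cells had 29 of 80 lower (16.9% of all genes) and 0 higher (16.5%), with medians of -0.27 and -0.06. Over the 10 classes the members' median ran from -0.27 to 0.10. Rps27l stood 1.58-fold higher (1.5 to 1.66) in fibroblasts of irradiated and 1.42-fold lower (1.34 to 1.5) in macrophages or monocytes.

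For pretreatment against irradiated, in macrophages or monocytes 79 of 81 members were higher (36.2% of all genes) and 0 lower (27.1% of all genes), with a median log2 ratio of 1.04 against 0.11 for all genes. In T cells 72 of 81 members were higher (21.3% of all genes) and 1 lower (34.0% of all genes), with a median log2 ratio of 0.93 against -0.16 for all genes. In fibroblasts 20 of 82 members were higher (26.4% of all genes) and 12 lower (28.7% of all genes), with a median log2 ratio of 0.12 against -0.02 for all genes, shares near or below those of all genes. Rpl10, a late-joining protein of the large subunit, led in all 3 classes, with CPM of 448, 392, 1725, 1188, 411 and 862 over the 6 libraries in macrophages or monocytes. It was 4.4-fold higher (4.26 to 4.55) there, 4.66-fold higher (4.25 to 5.11) in T cells and 2.69-fold higher (2.60 to 2.79) in fibroblasts. Rps18, of the small subunit head, was second in macrophages or monocytes (2.07 in log2) and T cells (2.02), and Rpl21 in fibroblasts (0.77). At the low end stood Rps9 (0.05) and Rpl37a (0.08) in macrophages or monocytes, Rpl37a (-0.33) and Rps26 (-0.22) in T cells and Rps27l (-0.98) and Rps26 (-0.69) in fibroblasts. The T cell CPM of Rpl37a (ENSMUSG00000046330) were 5369.5, 5529.7, 4386, 4563, 5224 and 5160.3, lowest in pretreatment.

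For continuous against irradiated, in macrophages or monocytes 70 of 81 members were higher (24.7% of all genes) and 0 lower (25.3% of all genes), with a median log2 ratio of 0.66 against -0.01 for all genes. In T cells 72 of 81 members were higher (17.4% of all genes) and 0 lower (31.7% of all genes), with a median log2 ratio of 0.85 against -0.14 for all genes, and in fibroblasts 41 of 82 members were higher (17.9% of all genes) and 4 lower (22.6% of all genes), with a median log2 ratio of 0.32 against -0.04 for all genes. Rpl10 and Rps18 were again highest in the 3 classes, at 1.60 and 1.54 in macrophages or monocytes, 1.95 and 1.84 in T cells and 1.02 and 1.02 in fibroblasts. Lowest were Rpl37a (-0.21) and Rplp2 (0.02), Rpl37a (-0.28) and Rps26 (0.07) and Rpl37a (-0.67) and Rps26 (-0.45) in the same order of classes.

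For chronic against irradiated, in macrophages or monocytes 71 of 81 members were higher (19.2% of all genes) and 0 lower (17.1% of all genes), with a median log2 ratio of 0.64 against 0.01 for all genes. In T cells 61 of 81 members were higher (12.7% of all genes) and 0 lower (23.6% of all genes), with a median log2 ratio of 0.58 against -0.09 for all genes, and in fibroblasts 28 of 82 members were higher (15.6% of all genes) and 0 lower (14.5% of all genes), with a median log2 ratio of 0.25 against 0.01 for all genes. Rpl10 and Rps18 were the 2 highest in each class, at 1.14 and 1.21, 1.46 and 1.24, and 0.95 and 0.71 in log2 in macrophages or monocytes, T cells and fibroblasts. The lowest were Rpl37a (0.02) and Rps9 (0.13), Rpsa (-0.18) and Rpl41 (-0.11) and Rpl37a (-0.31) and Rpl41 (-0.28).

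For acute against irradiated, most members of macrophages or monocytes, T cells and fibroblasts lay within these limits, but not those of neutrophils. In neutrophils 53 of 82 members were higher (31.7% of all genes) and 0 lower (3.96% of all genes), with a median log2 ratio of 0.36 against 0.24 for all genes. In macrophages or monocytes 1 of 82 members was higher (6.13% of all genes) and 0 lower (3.8% of all genes), with a median log2 ratio of 0.12 against 0.06 for all genes. In T cells 0 of 81 members were higher (5.66% of all genes) and 1 lower (5.51% of all genes), with a median log2 ratio of -0.04 against 0.00 for all genes, and in fibroblasts 1 of 82 members was higher (7.4% of all genes) and 0 lower (4.02% of all genes), with a median log2 ratio of -0.07 against 0.04 for all genes. The extremes of acute were Rpl22l1 (-0.04) and Rps13 (0.02) with Rpl39l (0.73) and Rps29 (0.27) in macrophages or monocytes, Rps27l (-0.36) and Rpl22l1 (-0.27) with Rpl7l1 (0.33) and Rps27 (0.17) in T cells, and Rpl5 (-0.20) and Rpl7 (-0.19) with Rpl39l (0.35) and Rpl7l1 (0.16) in fibroblasts.

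**Figure D4:**
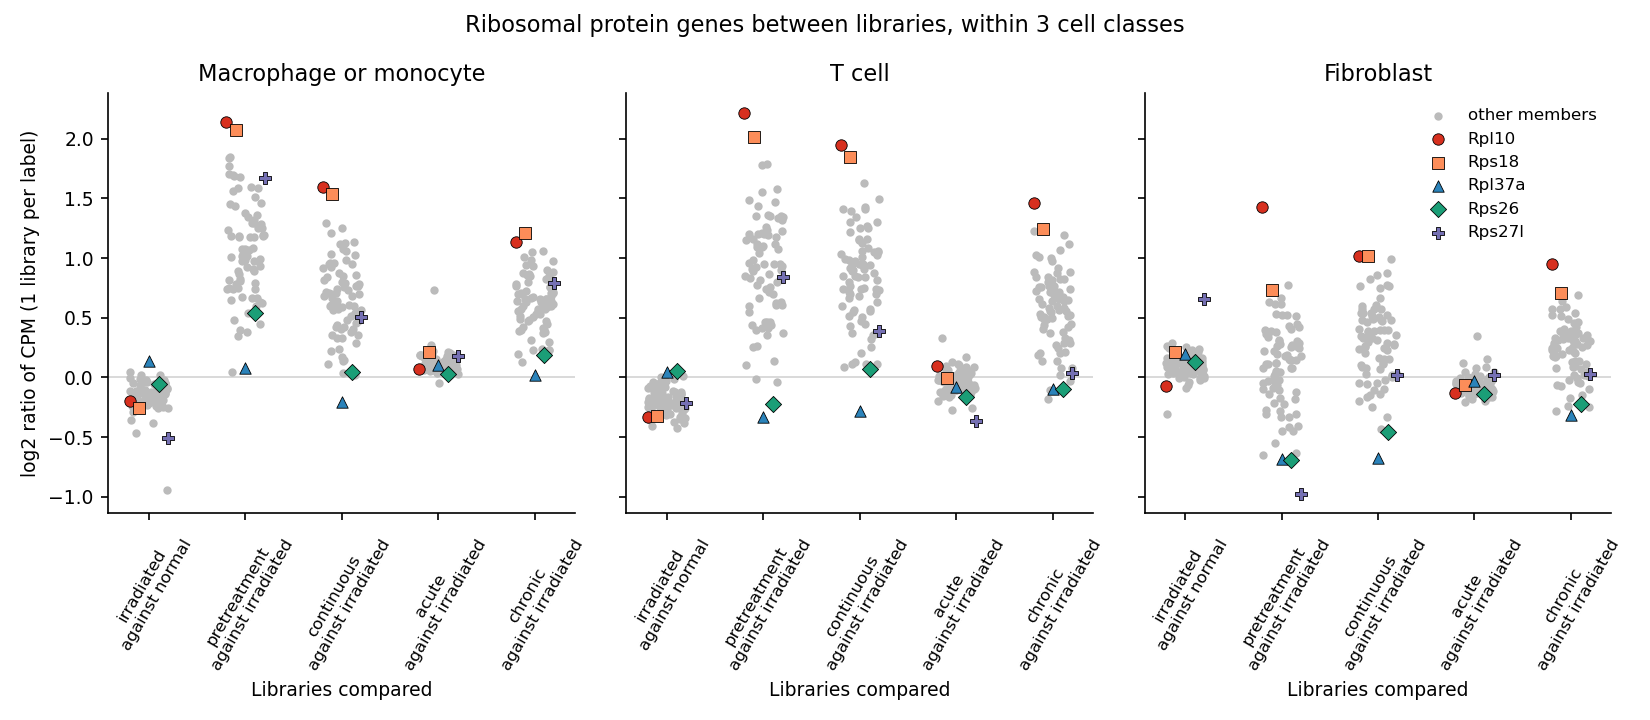
Log2 ratio of CPM of each ribosomal protein gene with at least 100 UMIs (points) for 5 comparisons of libraries (horizontal axis) in macrophages or monocytes, T cells and fibroblasts; there is 1 library per label and points carry no error between animals. Rpl10 and Rps18 lie at the top and Rpl37a and Rps26 near the bottom of the members in pretreatment, continuous and chronic against irradiated, and acute lies near 0 in these 3 classes.

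Over all classes with at least 50 cells, the members' median log2 ratio against irradiated ran from 0.12 to 1.04 in pretreatment (5 classes), from -0.07 to 0.85 in continuous (7), from -0.07 to 0.36 in acute (10) and from 0.25 to 0.73 in chronic (7). The lowest of continuous was that of neutrophils, whose median over all genes was -0.42. The same members stood at the ends across cell classes. Rpl10 was among the 3 highest members in 5 of 5 classes for pretreatment, 7 of 7 for continuous and 7 of 7 for chronic, and Rps18 in 5 of 5, 6 of 7 and 6 of 7. Rpl37a was among the 3 lowest in 5 of 5, 7 of 7 and 7 of 7. Relative to the median member of the class, the log2 ratio of Rpl10 was 1.07 to 1.39, 0.70 to 1.10 and 0.49 to 0.88 in the 3 comparisons, and that of Rpl37a -1.26 to -0.78, -1.13 to -0.82 and -0.74 to -0.51. Rps26 gave -1.23 to -0.49, -1.05 to -0.51 and -0.71 to -0.31. The classes of a library were captured and sequenced together, and the 3 comparisons share 1 control library, so these counts describe 3 libraries and not independent repeats. In CPM, fibroblasts of the 6 libraries held 533, 507, 1365, 1028, 462 and 983 of Rpl10 and 4384, 5033, 3133, 3153, 4923 and 4053 of Rpl37a. Normal, irradiated and acute lay together for Rpl10, below the other libraries, and above them for Rpl37a.

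Other translation genes differed by list and by class. In macrophages or monocytes the terminal oligopyrimidine list had a median log2 ratio of 0.52 for pretreatment against irradiated, 0.14 for continuous, 0.03 for acute and 0.30 for chronic. The members' own medians there were 1.04, 0.66, 0.12 and 0.64. Mitochondrial ribosomal proteins stood at 0.95, 0.69, 0.07 and 0.47. Ribosome biogenesis genes stood at 0.89, 0.25, 0.24 and 0.52. In keratinocytes mitochondrial ribosomal proteins stood above the members, at 1.05 against 0.59 for pretreatment and 0.78 against 0.41 for continuous. In fibroblasts ribosome biogenesis genes stood above the members for continuous, at 0.63 against 0.32, and below them for pretreatment, at -0.17 against 0.12. For irradiated against normal, 15 of 20 ribosome biogenesis genes were lower by at least 20% in macrophages or monocytes (16.3% of all genes) and 0 higher (10.3% of all genes), with a median of -0.51 beside -0.14 for the members. In fibroblasts the same comparison had 6 higher (10.8% of all genes) and 1 lower (12.1%) of 20.

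Listed copies outside the rule divided some UMIs with members, and Rpl9-ps6 and Rpl10-ps3 did so unequally between libraries. Rpl9-ps6 took 7.22% (6.95 to 7.50), 7.51% (7.26 to 7.76), 1.45% (1.33 to 1.58), 1.74% (1.63 to 1.85), 7.30% (7.05 to 7.56) and 2.61% (2.47 to 2.75) of the UMIs of Rpl9 and Rpl9-ps6 together (Clopper-Pearson 95% intervals, counting error only). Over all cells the shares were thus 7.22% to 7.51% in normal, irradiated and acute and 1.45% to 2.61% in the other libraries. The split was there in single classes too, with 8.30% (7.81 to 8.81) in macrophages or monocytes of irradiated against 1.53% (1.27 to 1.82) of pretreatment, and 4.66% (4.23 to 5.11) against 1.65% (1.41 to 1.92) in fibroblasts. In CPM over all cells, the same libraries stood apart for both genes. Rpl9 held 769, 723, 1847, 1427, 767 and 1315 CPM and Rpl9-ps6 59.8, 58.7, 27.2, 25.3, 60.4 and 35.2, so the copy was lower in pretreatment, continuous and chronic. Rps27rt, a copy of Rps27, did not divide that way, at 56.5, 49.9, 50.1, 57.0, 46.0 and 74.7 CPM. Rpl10-ps3 stood at 19.6, 18.6, 32.4, 20.9, 19.6 and 22.8 CPM against 414, 353, 1648, 970, 384 and 848 of Rpl10. Relative to Rpl10 this copy was thus also smaller in pretreatment, continuous and chronic, although its own CPM was not lower there. Rpl36a-ps1 stood at 8.16 to 13.9 CPM. What sets the division between Rpl9 or Rpl10 and its copy was not tested.

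**Figure D5:**
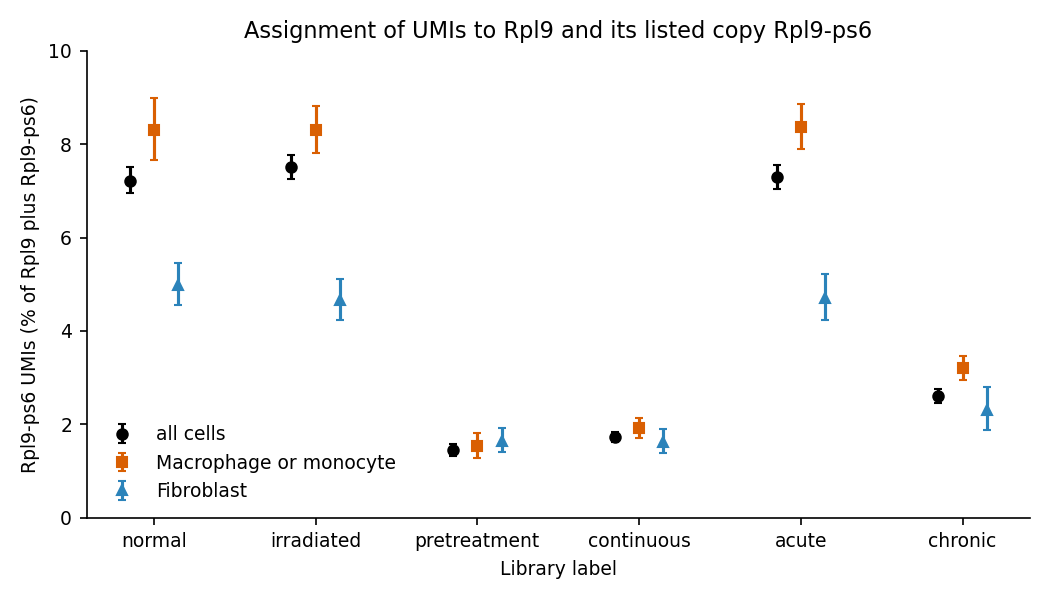
UMIs counted to Rpl9-ps6 as a percent of those counted to Rpl9 and Rpl9-ps6 together (vertical axis) in the 6 libraries (horizontal axis), for all cells, macrophages or monocytes and fibroblasts; bars are Clopper-Pearson 95% intervals for counting error. For the cells shown, normal, irradiated and acute lie between 4.66% and 8.37%, and the other libraries at 3.20% or below.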

How the data were processed

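The deposited files hold raw UMI counts per gene and barcode, 1 matrix per library, made with cellranger 6.0.0 per the file headers; the submitters' processing notes name Cell Ranger, Seurat 5.0.1 and the pig build Sscrofa11.1, while all 32285 gene features carry mouse identifiers. The 4 hashtag features were kept out of all totals. Barcodes were kept from 500 UMIs and 300 genes upward, if mitochondrially encoded genes took no more than 20% of UMIs. A cell was given a class where at least 2 of that class's markers exceeded 10% of their library-wide share at a Poisson p of 0.01. Cells with many markers of a second class were left out, which removes only doublets of unlike cells (126 to 3177 cells per library), and cells without a class were left out too (133 to 3287).

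Members, lists and tests were chosen with earlier results of these data known. CPM were computed over all gene UMIs of a class in a library. Pairs of classes with at least 20 cells were tested with edgeR 4.0.16 (R 4.3.3; quasi-likelihood, TMM, filterByExpr, library as a block, Benjamini-Hochberg), checked on simulated data, and with DESeq2 1.42.0 as an alternative; the block joins sums of the same library. Shares were compared by exact sign-flip tests (scipy 1.17.1). Libraries were compared only by ratios with exact Poisson intervals and shares with Clopper-Pearson intervals at 95%, which cover counting error only. Named genes were the 10 members with most UMIs (1 is not reported here), the 3 highest and 3 lowest that passed per class pair, the 2 highest and 2 lowest per library comparison in 3 classes, paralog pairs, stalk genes, Rpl5 and Rpl11; Rps28 in T cells, the members of the neutrophil pair that did not pass, the near copies, and library counts in classes beyond those 3 were chosen after their values were seen. Alternatives changed the normalization, filters, gate, doublets, block, fold and the library set.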

Additional observations from a re-analysis of the deposited data

How the results depend on the processing

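Members, lists and tests are those of the report, with 1 library per label. The count of 47 members higher in T cells than in macrophages or monocytes was 75 when scaled to total UMIs, 12 without a filter on low counts, 7 without the block that pairs classes of 1 library, and 15 to 48 when 1 library was left out. The count of 56 lower in endothelial cells than in fibroblasts was 12 scaled to total UMIs, 30 without the library block, and 43 to 70 with 1 library left out. The 4 members higher in B cells than in T cells were 2 without the filter, 0 without the block and 0 to 3 with 1 library left out. The block changed no count by over 1.5 times for neutrophils or keratinocytes. Scaled to total UMIs, Rps9 in T cells turned to 0.016, and Rps3, Rpl7a and Rpl37a in endothelial cells turned to 0.022, 0.037 and 0.068 in log2; the cause was not tested. With medians of single-cell shares, the differences were 4.94 (T cells), -8.58 (neutrophils), -1.37 (endothelial cells) and 8.59 points (keratinocytes). Cells of 1500 to 3000 UMIs, an alternative chosen after seeing the data, turned the endothelial difference to 0.83 points in 5 libraries.

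Median library differences in share, in points, also moved, in part because the set of classes with at least 50 cells changed. Without mitochondrially encoded genes they were 8.72 for pretreatment, 3.79 for continuous and 4.41 for chronic. A stricter gate gave -0.77 for irradiated against normal (9 classes), 0.66 for acute (8) and 3.88 for chronic (6), keeping mixed cells gave 8.85 for pretreatment (5) and 4.21 for continuous (8), and a stricter cell filter gave 4.11 for continuous (6). Single-cell medians gave -0.85 for irradiated, 8.27 for pretreatment, 2.89 for continuous and 0.73 for acute. Cells of 1500 to 3000 UMIs gave 1.91 for pretreatment (2 classes), 2.60 for continuous, 1.64 for acute and 3.82 for chronic. At 1.5-fold, 1 member in place of 5 was lower in macrophages or monocytes of irradiated. Depth limits B cells, neutrophils of pretreatment and the paralogs Rpl3l and Rpl39l.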
